A study of Mus musculus with 2 samples.

Results

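The kinesins outside the kinesin-2 group were examined in the mandibular prominence, the facial swelling that becomes the lower jaw, of mouse embryos that lack the kinesin-2 motor Kif3a in the neural crest. The members are the genes whose symbol is Kif or Kifc followed by a number and at most 1 letter. The kinesin-2 genes Kif3a, Kif3b, Kif3c and Kif17 and the Hedgehog regulator Kif7 were left out. This gave 36 of the 30723 gene symbols in the deposited tables. By known function 14 were grouped as mitotic, 13 as transport kinesins and 9 as other. The series holds 2 libraries of total RNA, both on a mixed CD1 background and labelled E11.5, and each was made from a pool of 10 embryos. One library is called control, with no further genotype in the labels. The other is Kif3a f/f ; Wnt1-Cre. Wnt1-Cre acts in the neural crest and its descendants, so epithelium, muscle precursors, vessels and blood in the pooled tissue keep the gene. In their naming the tables carry E11 for the mutant but E11.5 for the control, and a different sequencing run for each. Stage and run cannot be told apart from genotype. With 1 library in each group no difference has a replicate check, and no p-value was computed.

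Kinesins are motor proteins that use ATP to move along microtubules or to take tubulin off their ends. Mitotic kinesins build the spindle, align and separate chromosomes and organise the midbody at cytokinesis, so their transcripts are abundant in dividing tissue. Transport kinesins carry vesicles, mitochondria and other cargo, and several are best known from axons. Others act on microtubule length, at centrioles and cilia, or in signalling. Many mitotic genes are repressed in resting cells through a promoter element called the cell cycle genes homology region (CHR), and are activated through CCAAT boxes bound by the factor NF-Y.

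Promoter windows of 300 bases, 250 before and 50 from the annotated start, were available from RefSeq (GRCm38.p6) for 28 of the 36 members, 32 windows in all. Kif20a, Kif5a, Kif5b, Kif13b, Kif21b, Kifc2, Kifc3 and Kif19a had no window. The windows were searched on both strands for the CHR letters TTTGAA and for CCAAT. The CHR letters were found in 11 of 13 mitotic windows, 1 of 9 transport windows and 2 of 10 other windows, against 17.9% of all 32851 windows of the same length. Within 50 bases of the start the counts were 9 of 13 mitotic windows, 1 of 9 transport windows and 1 of 10 others, against 4.94% of all windows. CCAAT was found in 9 of 13 mitotic, 2 of 9 transport and 4 of 10 other windows, against 37.4% of all. Both elements stood in 8 of 13 mitotic windows and in 6.95% of all windows. Kifc1 and Kifc5b, copies that share part of their transcript sequence, are both among the mitotic windows. The mitotic genes without TTTGAA were Kif18a and Kif2b. Not every window lies at the start used in this tissue. The Kif2c window, which holds the CHR letters, lies 3852 bases from the start of the transcript that held 99.8% (control) and 97.0% (mutant) of its FPKM. Among windows within 50 bases of the start of the most abundant transcript of a member over the expression filter used below, TTTGAA stood in 10 of 11 mitotic, 0 of 7 transport and 1 of 4 other windows. A match describes the letters in the window and is not evidence of binding.

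The stretches from 100 bases before to 30 bases from the start are shown for the most abundant mitotic member, Kif11, and for the 4 mitotic members with the largest log2 ratios in either direction, so that the elements can be read beside the values. Kif5c, a transport member, is shown for contrast. Other transport windows do hold an element, TTTGAA in Kif1a and CCAAT in Kif1b. Letters of either element, on either strand, are in capitals. The positions are Kif11, chr19:37376282-37376411 (plus strand), Kif20b, chr19:34922258-34922387 (plus strand), Kif15, chr9:122950981-122951110 (plus strand), Kif22, chr7:127042391-127042520 (minus strand), Kif14, chr1:136467748-136467877 (plus strand), and Kif5c, chr2:49619186-49619315 (plus strand).
Kif11: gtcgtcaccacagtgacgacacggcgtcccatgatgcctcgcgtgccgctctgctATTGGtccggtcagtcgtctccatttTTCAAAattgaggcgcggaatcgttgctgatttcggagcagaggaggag
Kif20b: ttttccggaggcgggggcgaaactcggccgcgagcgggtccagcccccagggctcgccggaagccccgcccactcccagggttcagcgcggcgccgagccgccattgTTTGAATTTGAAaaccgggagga
Kif15: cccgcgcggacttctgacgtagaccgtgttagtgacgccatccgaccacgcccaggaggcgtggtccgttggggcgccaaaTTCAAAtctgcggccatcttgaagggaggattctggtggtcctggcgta
Kif22: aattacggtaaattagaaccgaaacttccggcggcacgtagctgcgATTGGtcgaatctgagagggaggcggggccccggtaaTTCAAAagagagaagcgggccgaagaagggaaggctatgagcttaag
Kif14: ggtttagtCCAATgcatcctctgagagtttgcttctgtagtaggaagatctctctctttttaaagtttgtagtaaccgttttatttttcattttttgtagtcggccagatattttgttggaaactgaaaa
Kif5c: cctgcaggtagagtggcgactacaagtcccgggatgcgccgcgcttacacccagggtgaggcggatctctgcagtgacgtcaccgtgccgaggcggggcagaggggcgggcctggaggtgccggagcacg
In Kif11 the inverted CCAAT box begins 45 bases and the inverted CHR letters 19 bases before the start, and in Kif22 they begin 54 and 17 bases before it. Kif20b holds the CHR letters 2 times in a row just past its start. Kif15 has them 19 bases before the start and no CCAAT. Kif14 has a CCAAT box 92 bases before the start, and its CHR letters lie 228 bases before it, outside the stretch shown. Kif5c holds neither element in its window.

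Kif3a, the deleted gene, stood at 11.46 FPKM in the control against 5.39 in the mutant, 2.12-fold lower (1.95 to 2.32). FPKM is the number of fragments per kilobase of transcript, scaled to the number of mapped fragments in the library and summed here over the transcripts of a gene. Intervals in parentheses are 95% counting intervals on approximate fragments and cover counting error only. About 24660000 and 24510000 fragments lay behind the control and the mutant table. Ratios of FPKM and of fragments differed, also in genes with 1 transcript. Kif11 had about 5954 and 7285 fragments at 48.6 and 53.9 FPKM. Kif22 had about 2921 and 2664 fragments at 55.5 and 46.2 FPKM. In both genes the mutant to control ratio was lower in FPKM than in fragments. Why was not tested. All 10 mandibular mesenchyme markers were above 1 FPKM in both libraries, with a summed level of 706 and 661 FPKM. The 6 oral epithelial markers summed to 121 and 153 FPKM, the 6 endothelial markers to 61.2 and 39.3, and the 7 erythroid markers to 22169 and 5652. What part these tissues have in the kinesin values was not tested. In pooled tissue, fewer cells of a type and less RNA per cell cannot be told apart.

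As a family these kinesins stood at like levels in both libraries. Of the 36 members, 28 had a mean of at least 1 FPKM over both libraries, 13 mitotic, 11 transport and 4 other. Their difference is given as log2((mutant FPKM + 1) / (control FPKM + 1)). Of these 28, 0 were at least 2-fold higher and 0 at least 2-fold lower, where 0.767% and 1.36% of all 12259 genes compared were. Their log2 ratios ran from -0.26 to 0.46, with a median of 0.12, while the median of all genes was -0.13. The count above the median gene was 23 of 28. At a fold of 1.25, chosen after the values were seen, 4 of 28 were higher and 0 lower, where 8.14% of all genes were higher and 22.5% lower. The 4 were Kif20b, Kif15, Kif5c and Kif13b. How this relates to transcript length is given further on. The directions depend on how the libraries are scaled: 23 of the 28 log2 ratios were above 0 after centring on the median gene and all 28 with scaling to a common total of FPKM, against 16 as deposited.

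**Figure D1:**
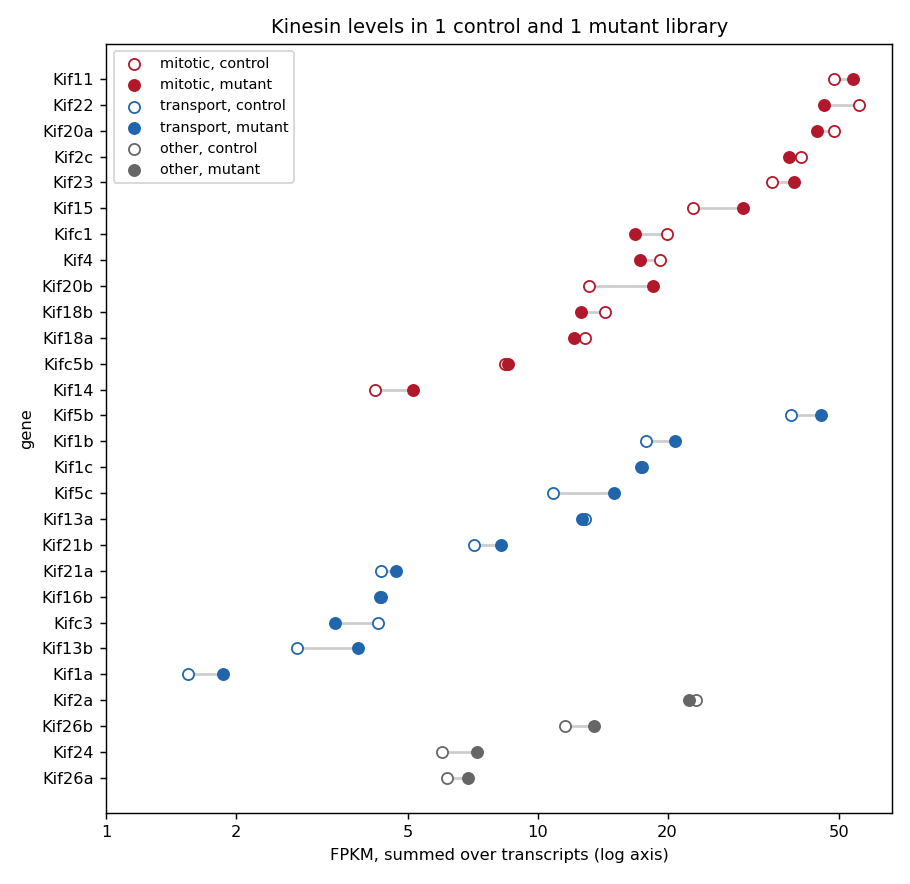
FPKM on a log axis of the 28 kinesins with a mean of at least 1 FPKM, by class, in the control (open circles) and mutant (filled circles) library. Kif11, Kif22 and Kif20a lead in the control and Kif11, Kif22 and Kif5b in the mutant, and the circles of each gene lie close together compared with the spread between genes.

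The mitotic kinesins were the most abundant class. Their summed FPKM was 343 in both libraries, which was 66.5% of the control total of the family and 64.2% of the mutant total. Of the 13 members over the filter, 6 had log2 ratios above 0 and 7 below, 9 lay above the median gene, and their median was -0.08. Their levels spanned 4.20 to 55.5 FPKM in the control.

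Kif11, the tetrameric motor that pushes spindle poles apart, lies at chr19:37376403-37421859. It stood at 48.6 FPKM in the control against 53.9 in the mutant, a ratio of 1.11 (1.07 to 1.15), and took the highest place in the mutant and the second in the control. Its mean level was above that of 88.4% of all genes compared. Kif22, a chromokinesin that binds DNA and pushes chromosome arms outward, lies at chr7:127027731-127042420. It stood at 55.5 and 46.2 FPKM, 1.20-fold lower in the mutant (1.14 to 1.27), and changed places with Kif11. The intervals of these ratios do not overlap. As deposited, the most abundant pair of mitotic kinesins went in opposite directions. With scaling to a common total of FPKM both log2 ratios were above 0, at 0.73 for Kif11 and 0.32 for Kif22.

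Kif20b, a midbody motor needed to complete cytokinesis, had the largest log2 ratio of all members, 0.46. It lies at chr19:34922358-34975731 and stood at 13.2 FPKM in the control against 18.5 in the mutant, a ratio of 1.41 (1.32 to 1.50) on about 1697 and 2587 fragments. Kif15, which works beside Kif11 in holding the spindle bipolar, lies at chr9:122951081-123018733 and stood at 22.9 and 29.9 FPKM, a ratio of 1.30 (1.24 to 1.37). Kif14, which recruits citron kinase to the midbody, stood at 4.20 and 5.15 FPKM, a ratio of 1.23 (1.13 to 1.34). It was the least abundant mitotic member over the filter. These were the highest log2 ratios of the class, and Kif23, the motor subunit of centralspindlin, came next at 34.9 and 39.2 FPKM.

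The remaining mitotic members were lower or close to equal in FPKM. In approximate fragments Kif20a, Kif2c, Kif18a and Kifc5b were slightly higher in the mutant, with 4236 and 4266 for Kif20a. Kifc1, Kif4 and Kif18b had fewer. Kif20a, which brings the chromosomal passenger complex to the central spindle, stood at 48.5 FPKM in the control against 44.3 in the mutant. Kif2c, a microtubule depolymerase that corrects faulty kinetochore attachments, stood at 40.7 and 38.3. Kifc1, a minus-end motor that focuses spindle poles, stood at 19.9 and 16.8 FPKM and Kif4, a chromokinesin of the central spindle, at 19.2 and 17.3. Kif18b, which shortens astral microtubules, stood at 14.3 and 12.6, and its relative Kif18a, which dampens chromosome movement at metaphase, at 12.9 and 12.1. All 6 had log2 ratios between -0.23 and -0.08, on either side of the median gene. Kifc5b stood at 8.38 and 8.54 FPKM. Kifc5b shares 36.6% of its stretches of 50 bases with Kifc1, so how fragments were split between these copies is uncertain. Whether the libraries keep strand is not known here. Exons of genes on the opposite strand overlap 29.3% of the exon bases of Kif20a, by Cdc23, and 15.1% of those of Kif4, by Pdzd11.

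**Figure D2:**
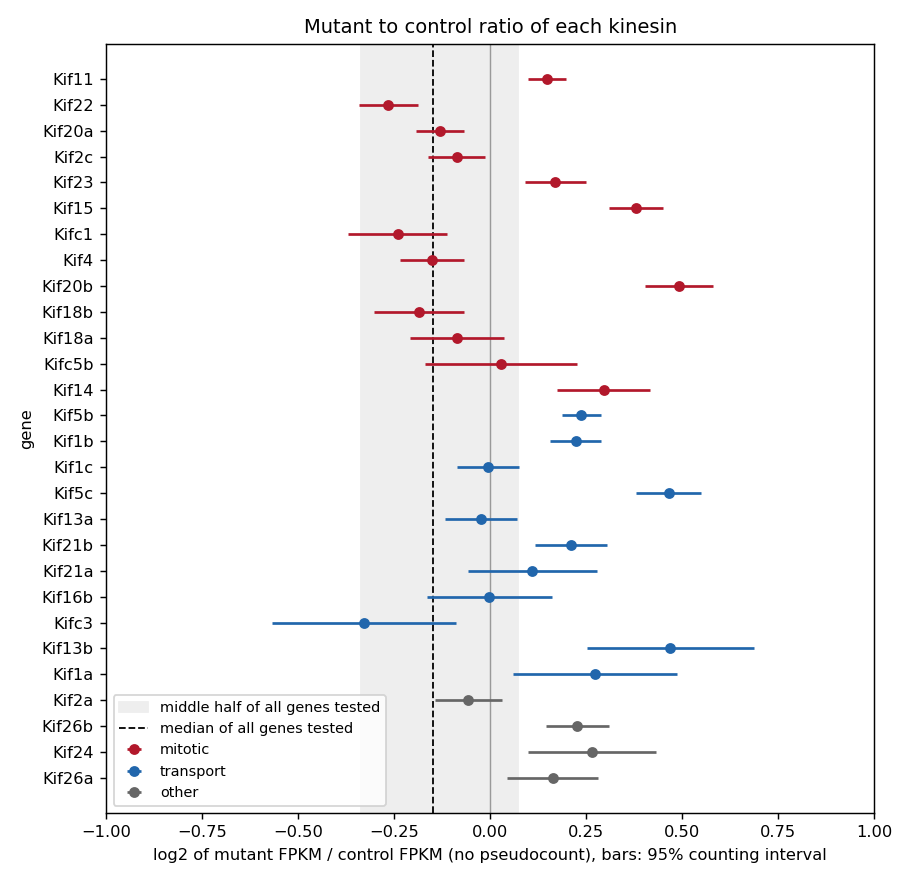
Log2 of the mutant to control ratio of FPKM, without a pseudocount, for each of the 28 kinesins; bars are 95% counting intervals, the dashed line is the median of all genes and the grey band holds their lower to upper quartile. Kif20b, Kif5c, Kif13b and Kif15 lie furthest to the right, and Kifc3 and Kif22 furthest to the left.

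Transport kinesins tended to sit above the median gene. Of the 11 members over the filter, 10 lay above it, 7 had log2 ratios above 0, and their median was 0.17. The summed FPKM of all 13 was 124 in the control and 139 in the mutant. Kif5b, the broadly expressed heavy chain of kinesin-1, was the most abundant, at 38.6 FPKM in the control against 45.5 in the mutant, a ratio of 1.18 (1.14 to 1.22). Kif5c, a heavy chain of the same motor that is enriched in neurons, lies at chr2:49619314-49774778. It stood at 10.9 and 15.0 FPKM, a ratio of 1.38 (1.30 to 1.46). Its ratio was larger than that of Kif5b in this pair of libraries. Their intervals do not overlap, but they cover counting error only. The third heavy chain, neuronal Kif5a, was under 1 FPKM at 0.715 and 0.833.

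Kif13b, a kinesin-3 motor, had the second highest log2 ratio of the class, 0.36. It stood at 2.77 FPKM in the control against 3.83 in the mutant, a ratio of 1.38 (1.19 to 1.61) on about 283 and 454 fragments. Its paralogue Kif13a, which carries endosomal cargo, stood at 12.9 and 12.7 FPKM, a ratio of 0.984 (0.922 to 1.05). Within the Kif1 branch, Kif1b, a carrier of mitochondria and synaptic vesicle precursors, stood at 17.8 and 20.8 FPKM, while Kif1c, a broadly expressed relative, stood at 17.4 in both. Kif1a, the neuronal carrier of synaptic vesicle precursors, was the lowest member over the filter, at 1.54 and 1.86.

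Kifc3, a minus-end motor at cell junctions and the Golgi, was the only transport member below the median gene, though it lay above it when only the most abundant transcript was used. It lies at chr8:95099828-95142540 and stood at 4.26 FPKM in the control against 3.39 in the mutant, 1.26-fold lower (1.06 to 1.48) on about 293 and 287 fragments. The fragments were nearly equal. FPKM divides by length, and longer Kifc3 transcripts held more of the mutant value, as described further on. Kif11 and Kif22, each with 1 transcript, also had a lower ratio in FPKM than in fragments, as given above. How much of the Kifc3 gap goes with transcript length was not tested. Kif16b, which moves early endosomes, stood at 4.33 and 4.32 FPKM. Kif21a and Kif21b, which restrain microtubule growth, stood at 4.34 and 4.68 and at 7.10 and 8.21.

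Several of these motors are known from neurons. The 11 neuronal markers in the tables summed to 49.98 FPKM in the control and to 53.1 in the mutant, and 4 of them were over the filter, with 2 log2 ratios above 0 and 2 below. Gap43 stood at 34.3 and 42.4 FPKM and Dcx at 1.58 and 2.12, while Tubb3 stood at 8.92 and 6.29 and Nefl at 1.58 and 0.742. Gap43 held most of the summed level. The other 7 were under the filter. Nefm stood at 1.40 and 0.268 FPKM, Elavl4 at 0.735 and 0.622, and Stmn2 at 0.761 and 0.300. Syt1 stood at 0.328 and 0.105 and Stmn3 at 0.183 and 0. Snap25, at 0.109 and 0.126, and Elavl3, at 0.0658 and 0.106, were higher in the mutant. The intervals of the Nefm, Stmn2 and Syt1 ratios lay below equal levels, while those of Elavl4, Snap25 and Elavl3 included them. Any part of neuronal tissue in the Kif5c, Kif1a and Kif21b values was not tested.

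The kinesins outside these classes were close to their level in the control. Kif2a, a depolymerase that acts at spindle poles and in neurites, was the most abundant of them at 23.3 FPKM in the control against 22.4 in the mutant. Exons of Dimt1 on the opposite strand overlap 19.2% of its exon bases. Kif26b, a kinesin without known motor activity that acts in mesenchymal adhesion and WNT5A signalling, stood at 11.55 and 13.5 FPKM, a ratio of 1.17 (1.11 to 1.24). Its relative Kif26a stood at 6.17 and 6.91. Kif24, which trims centriolar microtubules and holds back the assembly of cilia, stood at 6.01 and 7.22 FPKM, a ratio of 1.20 (1.07 to 1.35). All 4 lay above the median gene, and their median log2 ratio was 0.18.

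The 8 members under the filter ranged from 0 to 1.10 FPKM. Kif2b, a relative of Kif2c, and Kif12 were listed at 0 in both libraries. Kif27, which is related to Kif7 and known from motile cilia, stood at 1.10 FPKM in the control against 0.420 in the mutant. This is 2.61-fold lower (1.86 to 3.71) on about 115 and 50 fragments. Of its transcripts, that of 4462 bases stood at 0.838 and 0.420 FPKM, and that of 3302 bases at 0.258 and 3.41e-05. Among 1157 genes with a mean of 0.5 to 1 FPKM, 10.8% were at least 2-fold lower and 8.56% at least 2-fold higher on the same scale of deposited FPKM. Kif27 was the only member whose deposited FPKM differed by 2-fold. Kif6, also of motile cilia, stood at 0.530 and 0.843, a ratio of 1.59 (0.99 to 2.60), and Kif9 at 0.343 and 0.391, a ratio of 1.14 (0.657 to 2.0). Kifc2 stood at 0.892 and 0.822, and Kif19a, which sets the length of motile cilia, at 0.0731 and 0.0878. Apart from Kif27 and the genes listed at 0, these intervals include equal levels.

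The log2 ratios of the kinesins followed transcript length, as did those of all genes. Over the 28 members, described by the length of their most abundant transcript, Spearman's rho was 0.643 and Pearson's r 0.595. Over all 12259 genes rho was 0.407. These are descriptions across genes of 1 pair of libraries, which are not independent replicates. By class rho was 0.769 over 13 mitotic, 0.255 over 11 transport and 0.400 over 4 other members. The 2 members of 1501 to 2500 bases, Kif22 and Kifc1, had a median log2 ratio of -0.24, where all genes of that length had -0.20. The 9 members of 5001 to 7000 bases had 0.23, where all genes had 0.04, and the 5 members above 7000 bases had 0.21, where all genes had 0.24.

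Transport kinesins have longer transcripts, with a median of 6764 bases against 3425 for the mitotic class. As deposited, the median log2 ratio of the mitotic class was lower than that of the transport class by 0.25. When the running median of 501 genes of like length was subtracted, the mitotic class had a median of 0.05 and the transport class of -0.03, so the order of the classes turned round. Above the genes of like length were 7 of 13 mitotic, 5 of 11 transport and all 4 other members. Kif20b kept 0.43, Kif15 0.38 and Kif5c 0.31 on this scale, and Kif13b kept 0.33. Kif22 had -0.07 and Kifc1 -0.07, near other genes of their length. Kif14, with a transcript of 9030 bases, had -0.04, and Kif21b, of 9119 bases, had -0.10. Kif13a was lowest, at -0.15.

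**Figure D3:**
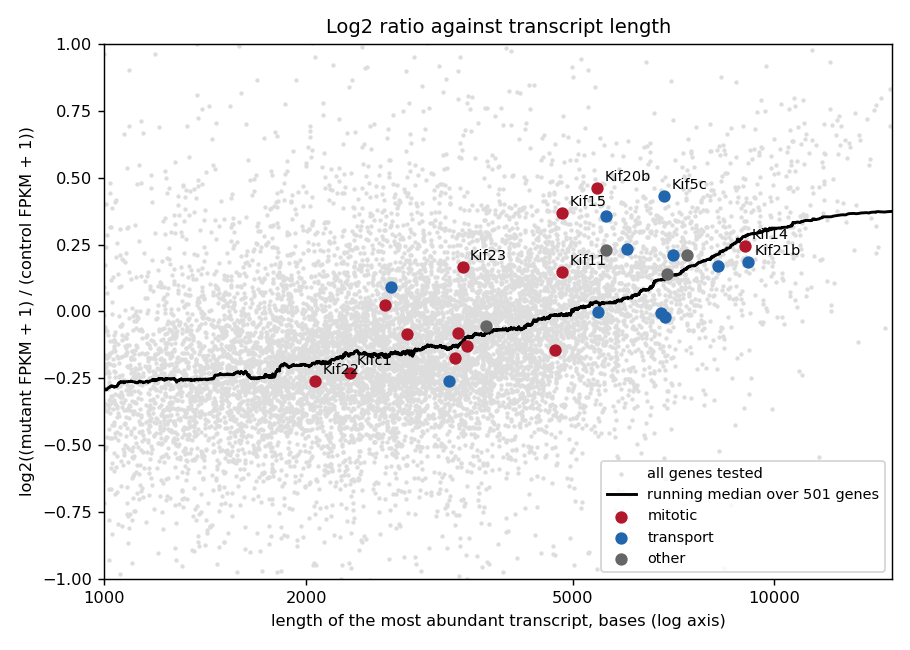
Log2 ratio against the length of the most abundant transcript on a log axis, for all genes compared (grey) and the kinesins (coloured by class), with the running median over 501 genes; genes beyond the plotted range are not shown. Kif22 and Kifc1 lie near the line at its short end and Kif14 and Kif21b near it at the long end, while Kif20b, Kif15 and Kif5c lie above it.

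**Figure D4:**
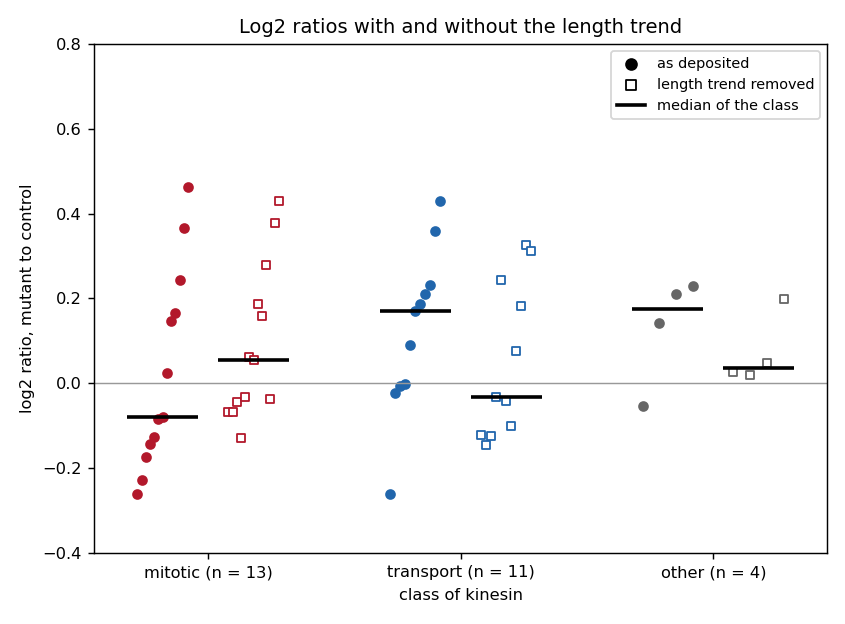
Log2 ratio of each kinesin by class as deposited (circles) and with the length trend removed (squares), with the median of each class as a bar. The mitotic median moves from -0.08 to 0.05 and the transport median from 0.17 to -0.03.

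Partners of the mitotic kinesins showed a like picture. All 24 genes of a list of spindle and cytokinesis proteins were over the filter, 0 were past 2-fold, 10 had log2 ratios above 0 and 14 below, and the median was -0.05. Top2a, which untangles sister chromatids, was the most abundant at 153 FPKM in the control against 179 in the mutant. The highest log2 ratios were those of the kinetochore gene Cenpf (0.64), the midbody kinase gene Cit (0.49) and the proliferation marker Mki67 (0.42). With the length trend removed they had 0.30, 0.75 and 0.11. The Cit value rests on a length of 1673 bases, that of its most abundant transcript alone. The kinetochore motor Cenpe, itself a kinesin whose symbol lies outside the rule, stood at 17.6 and 23.2 FPKM, a ratio of 1.32 (1.26 to 1.38). Racgap1, which joins Kif23 in centralspindlin, stood at 39.0 and 30.9 FPKM, a ratio of 0.791 (0.75 to 0.834), and as deposited went the other way from Kif23.

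Genes listed as adaptors that link transport kinesins to cargo were near the median gene. Of 20 genes on the list 18 were in the tables and 15 over the filter. The count was 0 at least 2-fold higher and 1 at least 2-fold lower, and the median log2 ratio was -0.14. The exception was Fez1, an adaptor of kinesin-1 that is enriched in neurons, at 12.7 FPKM in the control against 5.19 in the mutant, 2.45-fold lower (2.08 to 2.89). Of the 4 neuronal markers over the filter 2 were lower and 2 higher, as given above. Of those under it, Nefm, Elavl4, Stmn2, Syt1 and Stmn3 were lower and Snap25 and Elavl3 higher. Any part of neuronal tissue in the Fez1 value was not tested. Mapk8ip1 had a log2 ratio of -0.36 and Trak2, an adaptor for mitochondria, of -0.28. The most abundant gene on the list, Tcf25, whose role as a kinesin adaptor is not established, stood at 55.2 and 49.8 FPKM. The kinesin light chain Klc1 stood at 32.1 and 29.1. Of the other light chains Klc2 had a log2 ratio of -0.15, Klc4 of -0.11 and Klc3 of 0.15, on either side of the median gene.

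Dynein-1 and dynactin, the motor that runs the other way along microtubules, had 21 of 23 genes over the filter. Of these 0 were past 2-fold, 5 had log2 ratios above 0 and 16 below, with a median of -0.18, or -0.02 with the length trend removed. The heavy chain Dync1h1, with a transcript of 14398 bases, stood at 14.6 FPKM in the control against 26.2 in the mutant, a log2 ratio of 0.80 that was 0.43 with the trend removed. The light chain Dynlrb1 had -0.46, the dynactin gene Actr1b -0.40, and the most abundant member, the light chain Dynll1, stood at 195 and 164 FPKM. In the kinesin-2 group 4 of 5 genes were over the filter, all with log2 ratios below 0. Of these, Kif3b lay above the median gene, at 6.16 and 6.01 FPKM, a ratio of 0.975 (0.888 to 1.07). Kif17, under the filter, stood at 0.180 and 0.470 FPKM, a ratio of 2.60 (1.35 to 5.35) on about 13 and 36 fragments. The associated protein gene Kifap3 stood at 32.0 and 27.5 FPKM, and Kif3c had a log2 ratio of -0.35.

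Most kinesins kept the share of each transcript within 20 percentage points. Of the 28 members over the filter 22 have more than 1 annotated transcript. In 3 of them, all transport kinesins, a transcript's share of the gene's FPKM moved by at least 20 percentage points, where 12.9% of all 7954 genes with more than 1 transcript did. In Kif1a the transcript of 8233 bases held 69.9% in the control and 99.99% in the mutant, at the cost of one of 8260 bases. Both have the same start and end. In Kif21a the transcript of 6142 bases went from 16.8% to 38.4%. In Kifc3 the long transcript of 3270 bases went from 35.7% to 65.6%, while a transcript of 2017 bases that covers only part of the gene stood at 1.15 FPKM in the control against 2.77e-07 in the mutant.

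Partial transcripts were described by where they end or start. Each transcript was compared with the one of the widest span in its gene. Transcripts that start within 1000 bases of that one, end elsewhere and span less than 75% of it are called early-ending here, and those that end within 1000 bases of its end but start late are called late-starting. This description was chosen after the values were seen. Among 8 members with at least 1% of their FPKM in early-ending transcripts in both libraries, the share was higher in the mutant in 7, with a median change of 7.80 percentage points. Over all 1412 such genes it was higher in 75.6%, with a median change of 2.82 points. Kif15, Kif26b and Kif2c reached 1% in the mutant alone, so their direction is fixed by that minimum and they are not counted. In Kif18a these transcripts held 3.74% in the control and 12.1% in the mutant, in Kif20b 1.17% and 8.89%, and in Kif23 11.8% and 20.01%. Kif24 was the exception, at 40.9% and 27.2%. Late-starting transcripts went the other way in 6 of 7 members, all with at least 1% in both libraries, with a median change of -12.7 points. Over all 1398 such genes the median was -2.22 points and 37.6% were higher. Kif13a, at 44.1% and 26.6%, and Kifc3, at 38.8% and 8.01%, were among them. The direction in the kinesins was that seen over all genes.

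**Figure D5:**
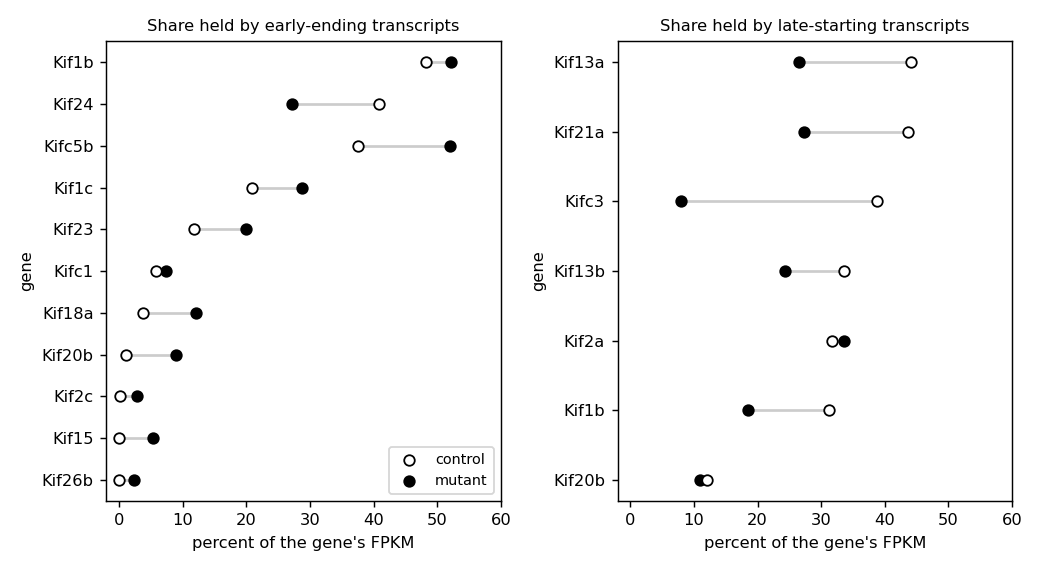
Share of each gene's FPKM, in percent, held by early-ending (left) and late-starting (right) transcripts in the control (open circles) and mutant (filled circles). All genes with at least 1% in either library are plotted; of the 8 with at least 1% in both, 7 have a higher early-ending share in the mutant, and late-starting shares are lower in 6 of 7.

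With only the most abundant transcript of each gene, Kif20b had a log2 ratio of 0.55 and stood at 7.49 FPKM in the control against 11.4 in the mutant, and Kif5c, which has 1 transcript, kept 0.43. Other members moved more on that scale. The transcript used is that of the highest mean over both libraries. Kif21a had -0.35, against 0.09 when its transcripts were summed, and was the only member at least 1.25-fold lower. Its transcript used, of 2679 bases, stood at 1.90 FPKM in the control against 1.28 in the mutant, while that of 6142 bases stood at 0.731 and 1.80. The -0.35 thus goes with the change of shares given above. The share of all genes past 1.25-fold on that scale was not computed. Kifc3 turned to 0.35 from -0.26, and Kif13a went to 0.33 from -0.02 and Kif1a to 0.46 from 0.17. Kif15 had 0.25, which is under 1.25-fold, and Kif23 had -0.03 against 0.17. Kifc5b had -0.29 against 0.02, and Kif1c -0.20 against -0.01.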

How the data were processed

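RNA from pooled mandibular prominences was measured in 1 control and 1 mutant library. The authors deposited 1 table per library with FPKM and coverage signal for 59120 transcripts, per the file headers. The naming of the tables gives Cufflinks; its version, the aligner and strandedness were not given in the sources used here. Build mm9 is named in the submitters' processing notes, but of 45475 transcripts with a shared gene symbol 72.1% had a start or end identical to GENCODE's on GRCm38, and 67.6% of 105 member transcripts did, so coordinates are given as GRCm38, 1-based. The 65 lines whose columns were displaced were left out of each table. FPKM was summed per gene symbol, with a pseudocount of 1, a filter of mean FPKM of 1 or more and no test. The members, classes and gene lists were chosen with earlier results of these data known. Named were all members over the filter, with fuller values for the most abundant and up to 4 with the largest log2 ratio of each class, up to 4 members under it, and the leading genes of each list. Racgap1, Cenpe, Klc1, Klc2, Klc3, Klc4, Kif3b, Kif17 and the neuronal markers were named after their values were seen. Fragments were approximated as coverage times length over the yield of 1 fragment, 156 bases (control) and 153 bases (mutant). That yield is the median of values between 80 and 220 bases in genes with 1 transcript longer than 1500 bases. Intervals are exact Clopper-Pearson at 95%. Transcript length is that of the most abundant transcript. The 2-fold call, the removal of the length trend and the counting interval were tested on simulated fragments with known changes. Transcript shares, partial transcripts and promoter counts were not tested in that way. Python 3.11.15 with pandas 2.3.3 and scipy 1.17.1 was used.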

Additional observations from a re-analysis of the deposited data

How the results depend on the processing

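No paired analysis was possible because each group has 1 library, and for the same reason none could be left out. Under centring on the median gene the median log2 ratios were 0.0503 for mitotic, 0.30 for transport, 0.31 for other and 0.25 for all kinesins. With scaling to the 75th percentile the mitotic, other and family medians were 0.0477, 0.30 and 0.23. TPM-like scaling to a common total gave 0.49, 0.59, 0.71 and 0.59, a mitotic minus transport difference of -0.10, and 1 member, Kif20b, at least 2-fold higher; all genes then had a median of 0.40. Without transcripts under 200 bases in that scaling the medians were 0.17, 0.35, 0.42 and 0.33. With the length trend removed they were 0.0542, -0.0336 and 0.0363 by class and the difference was 0.0878. A pseudocount of 5 gave 0.0688 for transport, no filter gave 0.0505 for other, and the most abundant transcript alone gave a difference of -0.40. No member was 2-fold lower under any of these settings. At 1.25-fold, the count of higher members was 9 after centring, 26 with TPM-like scaling and 3 with the length trend removed. With TPM-like scaling the median gene, at 0.40, was itself more than 1.25-fold higher. The shares of all genes past 1.25-fold or 2-fold were not computed at these settings, so these counts cannot be set against all genes. Of the 28 members, Kif20b, Kif15, Kif5c, Kif5b, Kif11, Kif13b, Kif1b, Kif23, Kif24, Kif26a and Kif26b lay above the median gene in every alternative that kept them, and Kif22, Kifc1 and Kif18b below it. Depth limits Kif6, Kif9 and Kif19a, on fewer than about 50 fragments in a library.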
